A study of Mus musculus with 9 samples.

Results

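The vascular smooth muscle and pericyte genes of the mouse hippocampus are described here as 10 genes of 18820 measured. Of these, 6 encode parts of the contractile machinery of vascular smooth muscle (Acta2, Myl9, Myh11, Tagln, Cnn1 and Des), and 4 mark pericytes (Rgs5, Pdgfrb, Kcnj8 and Abcc9). The genes were chosen by name as known markers, with the differences between groups in the same arrays already known, so those differences are given as a description. All 10 were found, each through a single probe set that names no other gene. The study has 9 arrays of hippocampus from C57BL/6 mice aged 12 to 14 weeks. Control mice gave 3 arrays, mice with a tibia fracture made at operation (surgery) gave 3, and mice that received Maresin 1 ahead of that operation gave 3. Hippocampi were taken 72 h after surgery. The labels do not say what anaesthesia or sham procedure the control mice had, nor the dose of Maresin 1, a lipid mediator made from docosahexaenoic acid. The title places the study among models of cognitive disorder around operations and names neuroinflammation as its subject.

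Vascular smooth muscle cells ring the arterioles and contract when the regulatory light chain of their myosin is phosphorylated, so that actin and myosin filaments slide past each other. Pericytes lie on capillaries within the basement membrane of the endothelium. Endothelial platelet-derived growth factor B recruits them through the receptor PDGFRB, and they help to maintain the blood-brain barrier. Both cell types are called mural cells and share several of the genes listed here.

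Values are levels on the scale log2(signal + 16) after quantile normalization between arrays, and differences are differences of group means on that scale. They understate the change of dim genes. A level of 5.86 served as the mark of background (the guide level), since 95% of 990 olfactory receptor genes, little used in brain, had a lower mean. The mean of the 9 arrays lay above it for 9 of the 10 genes, and that of Cnn1 was 5.42. Des stood just above it, at 5.89. The neuronal genes Snap25, Camk2a and Slc17a7 had mean levels of 12.6, 12.5 and 12.2, and all 12 measured hippocampal neuron markers were above the guide level. These levels show neuronal tissue, and the region it came from was not tested. In bulk tissue, fewer cells of a type and less RNA per cell cannot be told apart.

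Choroid plexus genes set control replicates 2 and 3 apart. Ttr, which encodes the choroid plexus product transthyretin, had deposited signals of 5034 and 6065 in them, against 228 in control replicate 1 and 58.7 to 302 in the operated mice. Summed over 19 measured choroid plexus markers, the normalized signal ran from 1897 to 25182 in the controls, from 2037 to 2291 after surgery and from 2117 to 2500 with Maresin 1. For the members, differences from control are also given further on without control replicate 1 and against control replicate 1 alone. The same was not done for the other lists.

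The contractile genes at the head of the list were higher in both groups of operated mice than in control mice. Acta2, Myl9 and Myh11 showed no overlap with control in either operated group, and Acta2 had the largest difference, 1.73-fold after surgery and 1.59-fold with Maresin 1. Rgs5 and Kcnj8 of the pericyte genes also showed no overlap with control in either group. These separations are of normalized levels. In the deposited signals, whose brightness differs between arrays, Acta2 kept its separation from control in both operated groups. Myl9, Myh11, Rgs5 and Kcnj8 overlapped with control there. Rgs5, for example, had a deposited signal of 735 in control replicate 1 and 437 in surgery replicate 1. Des, Cnn1, Pdgfrb and Abcc9 overlapped in both. No member passed the adjusted threshold in any of the 3 comparisons (limma, Benjamini-Hochberg adjusted p over all genes under 0.05).

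**Figure D1:**
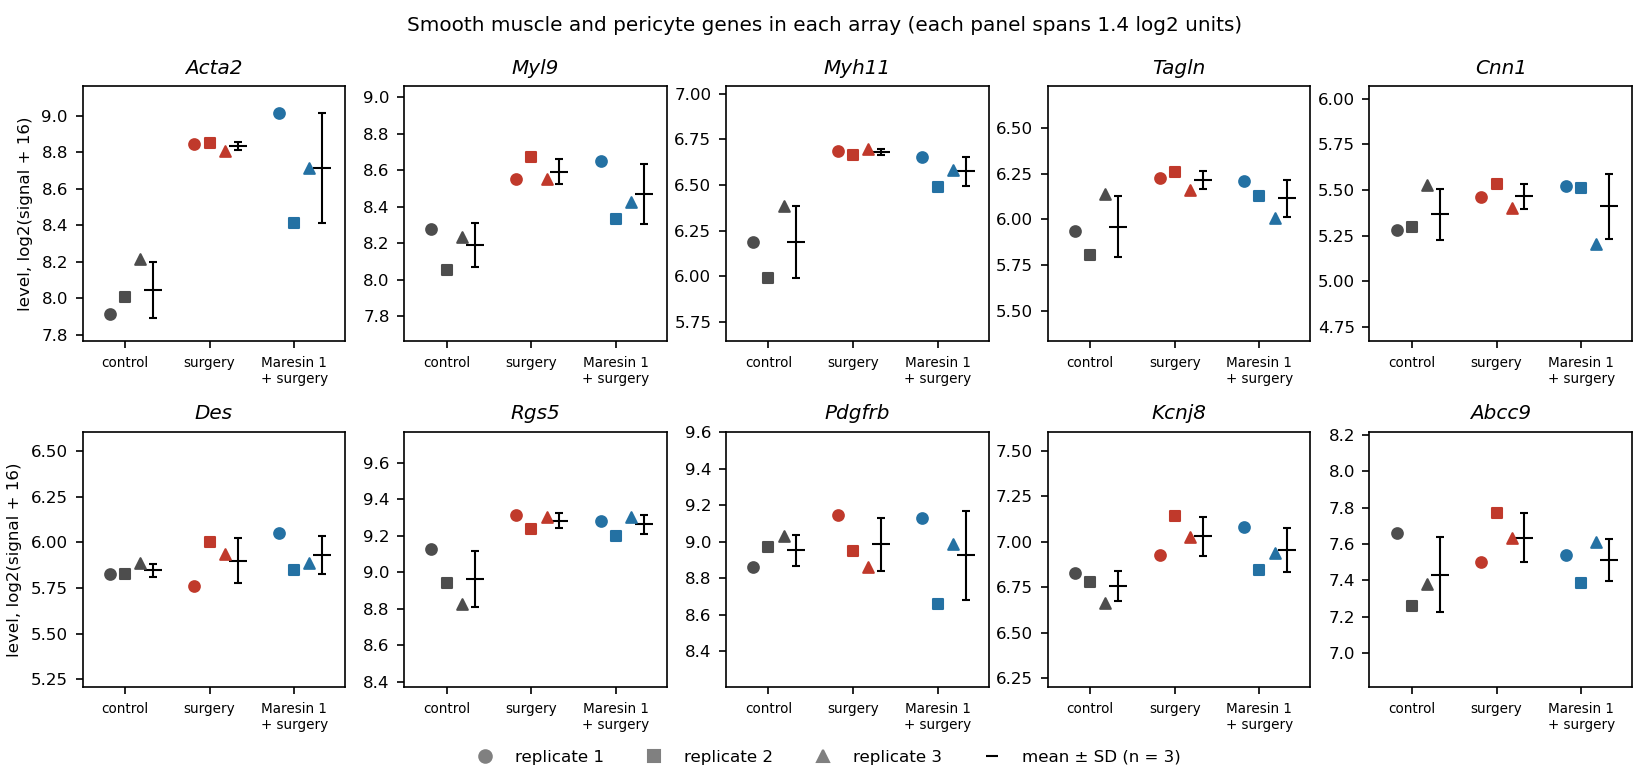
Level of each of the 10 genes in each of the 9 arrays, on the log2(signal + 16) scale, by group (control, surgery, Maresin 1 with surgery), with the mean ± SD of 3 arrays beside the points. All panels span the same range of log2 units but are centred on different levels. The Acta2 points of the surgery arrays lie between 8.81 and 8.85, all above the highest control array at 8.21.

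Acta2 encodes smooth muscle alpha-actin, the main thin-filament actin of the arteriolar wall. Its deposited signals were 299, 194 and 254 in control replicates 1 to 3, 312, 521 and 511 after surgery, and 499, 305 and 400 with Maresin 1. After normalization its levels were 7.91, 8.01 and 8.21 in control, 8.84, 8.85 and 8.81 after surgery, and 9.01, 8.41 and 8.71 with Maresin 1. The operated arrays all lay above the controls, tightly grouped after surgery and widely spread with Maresin 1. The surgery mean was 8.83 ± 0.02 (SD, n = 3) against 8.04 ± 0.15 in control, a difference of 0.79 (SE 0.12, 95% interval 0.52 to 1.06, limma adjusted p = 0.261). Among all genes this difference stood 4th from the top.

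Myl9 encodes the regulatory light chain of smooth muscle myosin, whose phosphorylation starts contraction. Its levels were 8.28, 8.05 and 8.23 in control, 8.55, 8.67 and 8.55 after surgery, and 8.65, 8.33 and 8.43 with Maresin 1. All operated arrays were above all controls, but Maresin 1 replicate 2 cleared the highest control narrowly. The difference between surgery and control was 0.40 (SE 0.09, 95% interval 0.21 to 0.60, limma adjusted p = 0.528), a 1.32-fold higher signal.

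The promoters of Acta2 and Myl9 are shown because both contractile genes had higher normalized levels in all operated arrays than in all controls. A further reason is that smooth muscle genes are known to be bound by serum response factor at CArG boxes. A CArG box is read here as CC, then 6 letters that are all A or T, then GG, a pattern that reads the same on both strands. A CArG-like stretch has a single G or C among the 6 letters, a wider pattern adopted after these sequences had been read. The windows run 5′ to 3′ from 250 bases before to 50 bases after the RefSeq start, build GRCm38.p6, with both kinds of stretch in capitals. They lie at chr19:34255324-34255623 on the minus strand for Acta2 and at chr2:156775214-156775513 on the plus strand for Myl9.
Acta2: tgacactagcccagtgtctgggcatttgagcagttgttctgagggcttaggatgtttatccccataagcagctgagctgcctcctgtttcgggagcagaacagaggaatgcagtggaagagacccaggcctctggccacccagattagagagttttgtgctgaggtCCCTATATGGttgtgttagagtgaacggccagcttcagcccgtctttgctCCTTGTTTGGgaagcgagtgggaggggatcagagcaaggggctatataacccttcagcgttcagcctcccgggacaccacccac
Myl9: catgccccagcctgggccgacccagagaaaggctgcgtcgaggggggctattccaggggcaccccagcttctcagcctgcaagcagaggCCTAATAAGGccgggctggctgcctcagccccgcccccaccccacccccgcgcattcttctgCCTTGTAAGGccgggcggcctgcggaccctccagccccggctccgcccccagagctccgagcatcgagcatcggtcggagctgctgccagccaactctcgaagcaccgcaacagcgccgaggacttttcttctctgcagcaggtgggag
The Acta2 window holds 2 CArG-like stretches, CCCTATATGG beginning 84 bases before the start and CCTTGTTTGG beginning 34 bases before it. The Myl9 window holds a CArG box, CCTAATAAGG, beginning 161 bases before the start, and the CArG-like stretch CCTTGTAAGG beginning 99 bases before it. Of 32851 windows of 300 bases in the table, 1.63% hold a CArG box and 9.98% hold either kind. The table gave windows for 5 further members that were searched, Cnn1, Des, Rgs5, Kcnj8 and Abcc9, and none of them held either kind. Tagln and Myh11 were not listed, and Pdgfrb was not read.

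Myh11 encodes the heavy chain of smooth muscle myosin, a standard marker of smooth muscle. Its levels were 6.19, 5.99 and 6.38 in control, 6.69, 6.66 and 6.70 after surgery, and 6.65, 6.49 and 6.58 with Maresin 1. The 3 groups did not overlap, with surgery highest and control lowest. The lowest surgery array, at 6.66, was only just above the highest Maresin 1 array, at 6.65. The surgery arrays lay within 0.03 of each other, while the controls spanned 0.39. The difference between surgery and control was 0.50 (SE 0.11, 95% interval 0.27 to 0.72, limma adjusted p = 0.487).

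Tagln encodes transgelin (SM22 alpha), an actin-binding protein of smooth muscle. Its levels were 5.94, 5.81 and 6.14 in control, 6.23, 6.26 and 6.16 after surgery, and 6.21, 6.13 and 6.01 with Maresin 1. The surgery arrays lay just above the highest control, and a single Maresin 1 array did. The difference between surgery and control was 0.26 (SE 0.10, limma adjusted p = 0.772).

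Cnn1 encodes calponin, which binds actin and restrains the myosin motor. Its levels, below the olfactory receptor guide, were 5.28, 5.30 and 5.53 in control, 5.46, 5.53 and 5.40 after surgery, and 5.52, 5.51 and 5.21 with Maresin 1. Des encodes desmin, the intermediate filament of muscle cells that is also found in pericytes. Its levels were 5.82, 5.83 and 5.89 in control, 5.76, 6.00 and 5.93 after surgery, and 6.05, 5.85 and 5.89 with Maresin 1. Both genes overlapped between all groups. The differences between surgery and control were 0.10 for Cnn1 (SE 0.11) and 0.05 for Des (SE 0.10), and at signals this near background a difference could be hidden.

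Rgs5, which speeds the shut-off of G protein signals and is among the most used pericyte markers, had the largest difference of the pericyte genes. Its levels were 9.13, 8.94 and 8.83 in control, 9.31, 9.24 and 9.30 after surgery, and 9.28, 9.20 and 9.30 with Maresin 1. The operated arrays all lay above the controls, and control replicate 1 was the control nearest to them. Surgery differed from control by 0.32 (SE 0.07, 95% interval 0.16 to 0.48, limma adjusted p = 0.534), a 1.25-fold higher signal.

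Kcnj8 and Abcc9 encode the pore (Kir6.1) and the sulphonylurea receptor (SUR2) of the vascular ATP-sensitive potassium channel, and they are neighbours in the RefSeq gene order. Kcnj8 levels were 6.83, 6.78 and 6.67 in control, 6.92, 7.14 and 7.02 after surgery, and 7.08, 6.85 and 6.94 with Maresin 1. Abcc9 levels were 7.66, 7.26 and 7.38 in control, 7.50, 7.77 and 7.63 after surgery, and 7.54, 7.39 and 7.61 with Maresin 1. Kcnj8 was higher than control in all operated arrays, by 0.27 after surgery (SE 0.10, limma adjusted p = 0.733). Abcc9 overlapped, because control replicate 1 lay above all but a single operated array, and its difference was 0.20 (SE 0.11). A further probe set that names Abcc9 together with another gene was not used.

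Pdgfrb, the receptor by which pericytes are recruited, was the pericyte gene with the smallest difference. Its levels were 8.86, 8.97 and 9.03 in control, 9.15, 8.95 and 8.86 after surgery, and 9.13, 8.66 and 8.99 with Maresin 1. Within both operated groups the arrays were spread over more than the control arrays. Surgery differed from control by 0.03 (SE 0.11, 95% interval -0.20 to 0.27). The upper end of that interval is below the 0.32 of Rgs5, but the difference between these genes was not tested.

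The comparison of surgery with control asks how the hippocampus differed 72 h after the fracture. All 10 genes had a difference above 0, as had 58.4% of all genes. The median difference was 0.26, against 0.02 over all genes. It was 0.33 for the contractile genes and 0.24 for the pericyte genes. Groups did not overlap for 6 members, all higher, and of all genes 7.71% were higher and 3.82% lower without overlap. The adjusted threshold was passed by 0 members and by 0% of all genes. At an unadjusted p under 0.05 limma counted 6 members, all higher, and of all genes 3.9% were higher and 2.31% lower at that level (6.21% in all). As the members were listed with this comparison known, these counts describe them and support nothing further.

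**Figure D2:**
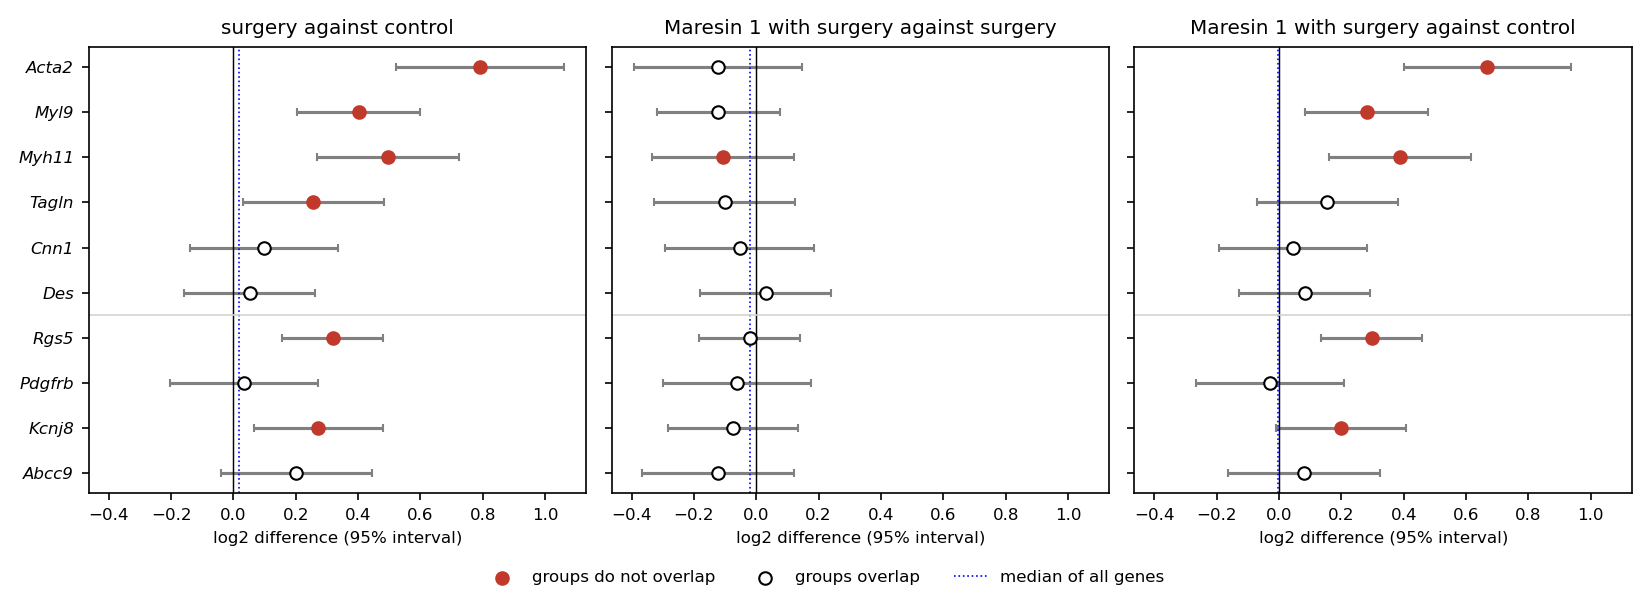
Difference of group means on the log2 scale for each gene in the 3 comparisons, with the 95% interval of the limma fit. Filled points mark genes whose groups do not overlap, the dotted line is the median of all 18820 genes, and the gray line separates contractile genes (above) from pericyte genes (below). Acta2 lies farthest to the right in both comparisons with control, at 0.79 and 0.67, and all intervals of Maresin 1 with surgery against surgery include 0.

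The members differed in how far the comparison rested on single controls. Against control replicate 1 alone, the control with low choroid plexus signal, the Acta2 difference after surgery was 0.93 and that of Myh11 0.51, and without that array they were 0.72 and 0.49. Rgs5 differed by 0.40 without control replicate 1 and by 0.15 against it alone, and Abcc9 by 0.31 and -0.03. Kcnj8 differed by 0.30 and 0.21 in that order, and Myl9 by 0.45 and 0.32. Tagln differed by 0.24 and 0.28, Cnn1 by 0.05 and 0.19, Des by 0.04 and 0.08, and Pdgfrb by -0.01 and 0.13. The median of the members was 0.31 without control replicate 1 and 0.20 against it alone, and that of all genes 0.01 and 0.03. Without control replicate 1, Acta2 passed the threshold (limma adjusted p = 0.0174) and so did Rgs5 (limma adjusted p = 0.0108). The controls left in that fit were those with high choroid plexus signal. Over all 18820 genes 167 passed in it (18 higher, 149 lower), against 0 with all arrays. Both member calls were toward higher levels. As the members were listed with earlier results known, these calls are a description. Over 20 alternatives the adjusted p ran from 0.00316 to 1.00 for Acta2 and from 0.0108 to 1.00 for Rgs5, the highest being without normalization between arrays. With each array scaled to a single median in place of quantile normalization, Acta2 differed by 0.93 (limma adjusted p = 0.00316), where the median of all genes was 0.10.

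**Figure D3:**
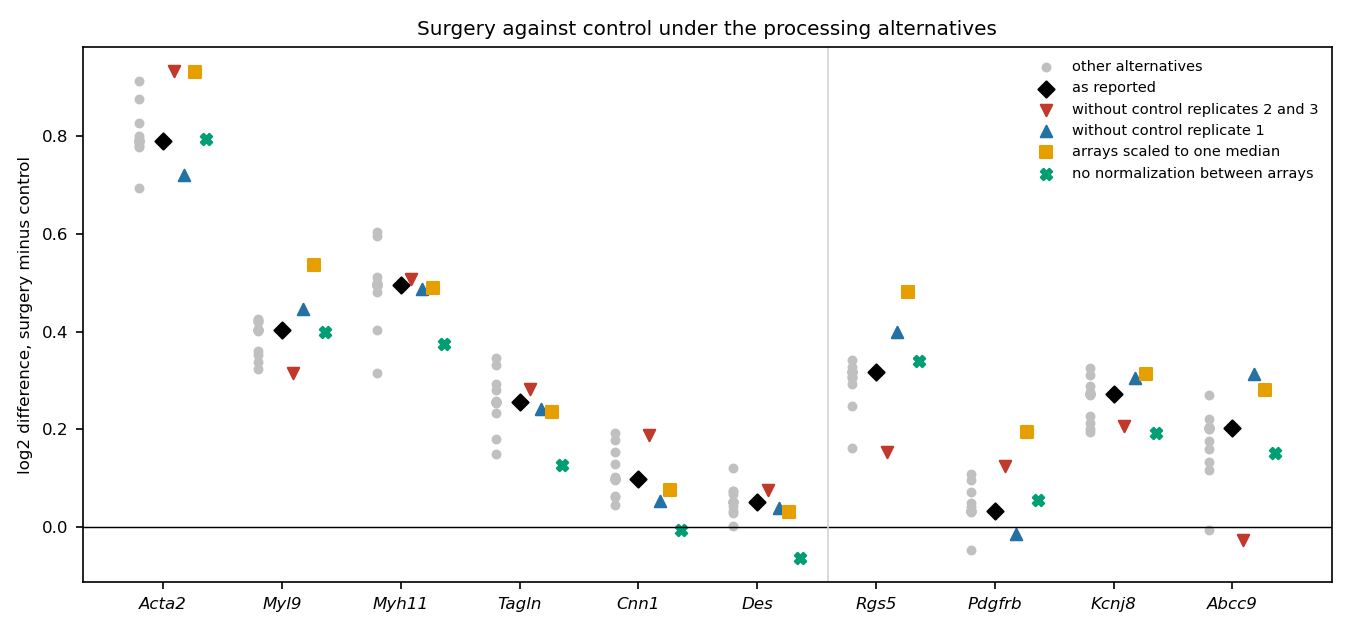
Difference between surgery and control on the log2 scale for each gene, as reported (diamond) and under 20 alternatives, of which those with other controls or another normalization have symbols of their own. Acta2 stays between 0.69 and 0.93, whereas Abcc9 runs from -0.03 against control replicate 1 alone to 0.31 without that array.

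The effect of Maresin 1 among operated mice was read from its comparison with surgery alone, which shares the surgery arrays with the comparison above. Of the members, 9 were lower with Maresin 1 than after surgery alone and Des was higher, by differences between -0.12 and 0.03. Their median was -0.09, against -0.02 over all genes, of which 41.7% had a difference above 0. Myh11, at -0.11 (SE 0.11), was the only member whose groups did not overlap, and of all genes 8.2% were lower and 4.79% higher without overlap. The adjusted threshold was passed by 0 members and 0% of all genes, and 0 members stood at an unadjusted p under 0.05, against 5.66% of all genes (3.7% lower, 1.96% higher). The 95% interval for Acta2 was -0.39 to 0.15 and for Myl9 -0.32 to 0.08. Both intervals include 0 and differences of over 0.3 toward lower levels.

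Spread among the Maresin 1 arrays was large for some members. Acta2 spanned 0.60 in that group and 0.05 after surgery, and Pdgfrb spanned 0.47 and 0.29. Replicate 1 was the highest and replicate 2 the lowest Maresin 1 array for 6 members, Acta2, Myl9, Myh11, Des, Pdgfrb and Kcnj8. Without Maresin 1 replicate 2 the Acta2 difference from surgery was 0.03, and without replicate 1 it was -0.27.

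The third comparison set the mice with Maresin 1 and surgery against control. It shares the control arrays with the comparison of surgery and control, so the values below are no second measurement of the same difference. Here 9 of 10 members had a difference above 0, against 49% of all genes, and the median was 0.18, against 0.00 over all genes. Acta2 differed by 0.67 (SE 0.12, limma adjusted p = 0.0792), Myh11 by 0.39 (SE 0.11, limma adjusted p = 0.178), Rgs5 by 0.30 (SE 0.07, limma adjusted p = 0.162) and Myl9 by 0.28 (SE 0.09). Kcnj8 differed by 0.20, Tagln by 0.16 and Pdgfrb by -0.03. Groups did not overlap for 5 members, all higher, and of all genes 7.61% were higher and 6.71% lower without overlap. The adjusted threshold was passed by 0 members and by 0.085% of all genes (0.0691% higher, 0.0159% lower). At an unadjusted p under 0.05 limma counted 4 members, all higher, against 11.5% of all genes (5.87% higher, 5.61% lower). Acta2 passed it without control replicate 1 (0.60, limma adjusted p = 0.0442) and with arrays scaled to a single median (0.68, limma adjusted p = 0.0332), and over 20 alternatives its adjusted p ran from 0.0332 to 1.00. Rgs5 passed the adjusted threshold without control replicate 1 (0.38, limma adjusted p = 0.0142) and differed by 0.13 against that control alone. Over all genes 244 passed without that array, where the controls left had high choroid plexus signal, against 16 with all arrays. Abcc9 differed by 0.19 without control replicate 1 and by -0.15 against it alone. The median of the members was 0.21 without that array and 0.13 against it alone.

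The median difference of other contractile genes between surgery and control was smaller than the 0.33 of the contractile members. Of 17 measured genes, 12 were higher after surgery than in control and 5 lower, with a median difference of 0.10. Beside the counts of this and the following lists, 58.4% of all genes were higher after surgery than in control. The share higher with Maresin 1 than after surgery alone was 41.7%. None passed the threshold in any comparison. The largest were Pln, the phospholamban that restrains the calcium pump (0.38, SE 0.11), and Casq2, a calcium store protein (0.32, SE 0.09), both without overlap. These exceeded the 0.26 of Tagln among the members. Both are dim genes, with control levels of 5.61 to 5.72 for Pln and 5.69 to 5.82 for Casq2, all below the guide level. Smtn, the actin-associated smoothelin, differed by 0.23, and Mylk, the kinase of the Myl9 light chain, by 0.22 with overlap. With Maresin 1 the values against control were 0.34 for Pln and 0.21 for Casq2.

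Of 17 measured regulators of vessel tone, 12 were higher after surgery and 5 lower, with a median of 0.04 and 0 past the threshold. Nos3, the endothelial nitric oxide synthase, differed by 0.28 without overlap, the vasoconstrictor gene Edn1 by 0.19, and Kcnmb1, a subunit of the smooth muscle calcium-activated potassium channel, by 0.31 with an SE of 0.17. The calcium channel pore gene Cacna1c, which neurons also express, differed by -0.14 without overlap. The cation channel gene Trpc6 differed by 0.01 after surgery and by 0.50 with Maresin 1 against control (limma adjusted p = 0.109).

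Transcription factors and signals of smooth muscle all had a difference above 0 between surgery and control, 15 of 15 measured, with a median of 0.13 and 0 past the threshold. Klf4, a repressor of contractile genes in cultured smooth muscle, differed by 0.37 (SE 0.10) and Foxf2, a pericyte transcription factor, by 0.36 (SE 0.10), both without overlap. Against surgery alone, 12 of the 15 were lower with Maresin 1, by a median of -0.16, among them Foxf2 (-0.28), Tbx18 of mural cells (-0.28) and Foxc1 (-0.30). The factors that act at CArG boxes, named here outside the rule for named genes, are Srf and its coactivators. Between surgery and control Srf differed by 0.10 (SE 0.08), Mrtfa by 0.00 and Mrtfb by 0.01, all with overlap, and Myocd stood below the guide level.

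Other pericyte genes were mostly higher after surgery and mostly lower with Maresin 1 than after surgery. Of 18 measured, 15 were higher after surgery than in control, by a median of 0.16, and 16 were lower with Maresin 1 than after surgery, by a median of -0.17. None passed the threshold. In the latter comparison 12 of 14 fibroblast markers were lower too, by a median of -0.18, and 11 of 12 skeletal and cardiac muscle markers by a median of -0.12; their part in the pericyte values was not tested. Vtn, the adhesion protein vitronectin that brain pericytes secrete, differed by 0.24 after surgery and by 0.04 with Maresin 1 against control. The peptidase genes Anpep and Enpep differed by 0.25 and 0.16 after surgery and by -0.06 and -0.05 with Maresin 1 against control. Cspg4 (NG2), which oligodendrocyte precursors also express, differed by -0.16 after surgery and by -0.26 with Maresin 1 against control, the latter without overlap.

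The pathway that recruits pericytes was measured through 10 genes, 6 of them higher and 4 lower after surgery, with a median of 0.04 and 0 past the threshold. The ligand gene Pdgfb differed by 0.21 (SE 0.07) without overlap, whereas its receptor gene Pdgfrb differed by 0.03. Of the other ligands, Pdgfa was at 0.03, Pdgfc at -0.01 and Pdgfd at -0.21 (SE 0.13), and the sister receptor Pdgfra, a gene of oligodendrocyte precursors and fibroblasts, was at 0.05. Of the coreceptors and adaptors, Nrp1 was at 0.07, Lrp1 at -0.13, Ptpn11 at 0.05, Shc1 at 0.14 and Grb2 at -0.01, all with overlap.

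Relatives of the members were read to set each named gene beside its family. Of 22 measured, 16 were higher and 6 lower after surgery, with a median of 0.04, 3 higher and 2 lower without overlap and 0 past the threshold. Of all genes, 7.71% were higher and 3.82% lower without overlap. Of the actins, Acta1 differed between surgery and control by 0.14, Actc1 by 0.15 and Actg2 by 0.13, and the cytoplasmic Actb and Actg1 by 0.03 and 0.05, all with overlap. The light chain gene Myl6 was lower without overlap, at -0.14 (SE 0.05), and Myl12a and Myl12b were at -0.02 and 0.01. The nonmuscle myosin genes Myh9, Myh10 and Myh14 were at 0.03, -0.01 and -0.08, all with overlap. Tagln2 (0.35, SE 0.10), Cnn2 (0.29, SE 0.12) and Cnn3 (0.19, SE 0.06) were higher without overlap, beside 0.26 for Tagln and 0.10 for Cnn1, and Tagln3 was at -0.08 with overlap. Rgs2 and Rgs4, relatives of Rgs5, were at 0.17 and 0.03, and the intermediate filament genes Vim and Synm at 0.08 and 0.00, all with overlap. Cnn3 differed by 0.34 with Maresin 1 against control (SE 0.06, limma adjusted p = 0.0635). The neuronal and endocrine channel pair Kcnj11 and Abcc8 differed by 0.05 with overlap and by -0.17 without overlap (lower) after surgery, against 0.27 and 0.20 for Kcnj8 and Abcc9. The inward rectifier genes Kcnj2, Kcnj10 and Kcnj16 were at -0.04, 0.04 and 0.04, all with overlap.

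Endothelial genes were higher in the same arrays. All 16 measured endothelium markers had a difference above 0 after surgery, as had 58.4% of all genes. Their median was 0.32, against 0.02 over all genes, and 11 were higher without overlap, as were 7.71% of all genes. None was at a deposited signal of 0 in any array, and 0 passed the threshold. Their summed normalized signal ran from 5393 to 5471 in control, from 6662 to 6855 after surgery and from 5865 to 7440 with Maresin 1. The list score, the mean over genes of the level minus its mean over all 9 arrays, was -0.16, -0.19 and -0.22 in control, 0.14, 0.11 and 0.09 after surgery, and 0.25, -0.11 and 0.10 with Maresin 1. The score of the 10 members was -0.15, -0.25 and -0.11 in control, 0.10, 0.17 and 0.10 after surgery, and 0.17, -0.06 and 0.03 with Maresin 1. In both, Maresin 1 replicate 1 was the highest and replicate 2 the lowest array of its group. That order was not particular to vessel genes. Astrocyte markers (0.19, -0.06 and -0.01) and microglia and border macrophage markers (0.10, -0.11 and -0.06) had it too, while fibroblast and hippocampal neuron markers did not.

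When each array's endothelium score was subtracted from every level, a step chosen after seeing the data, the median difference of the members between surgery and control was -0.04, against -0.29 over all genes. The step shifts the differences of all genes by the same amount and leaves their order unchanged, so the values below are read beside that median. Acta2 differed by 0.48 (SE 0.13), Myh11 by 0.19 (SE 0.15) and Myl9 by 0.10 (SE 0.13). Rgs5 was at 0.01, Kcnj8 at -0.03, Abcc9 at -0.10 and Pdgfrb at -0.27. The Pdgfrb value was near the median of all genes on this scale. Whether the share of vessels in the dissected tissue had a part in the result was not tested.

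**Figure D4:**
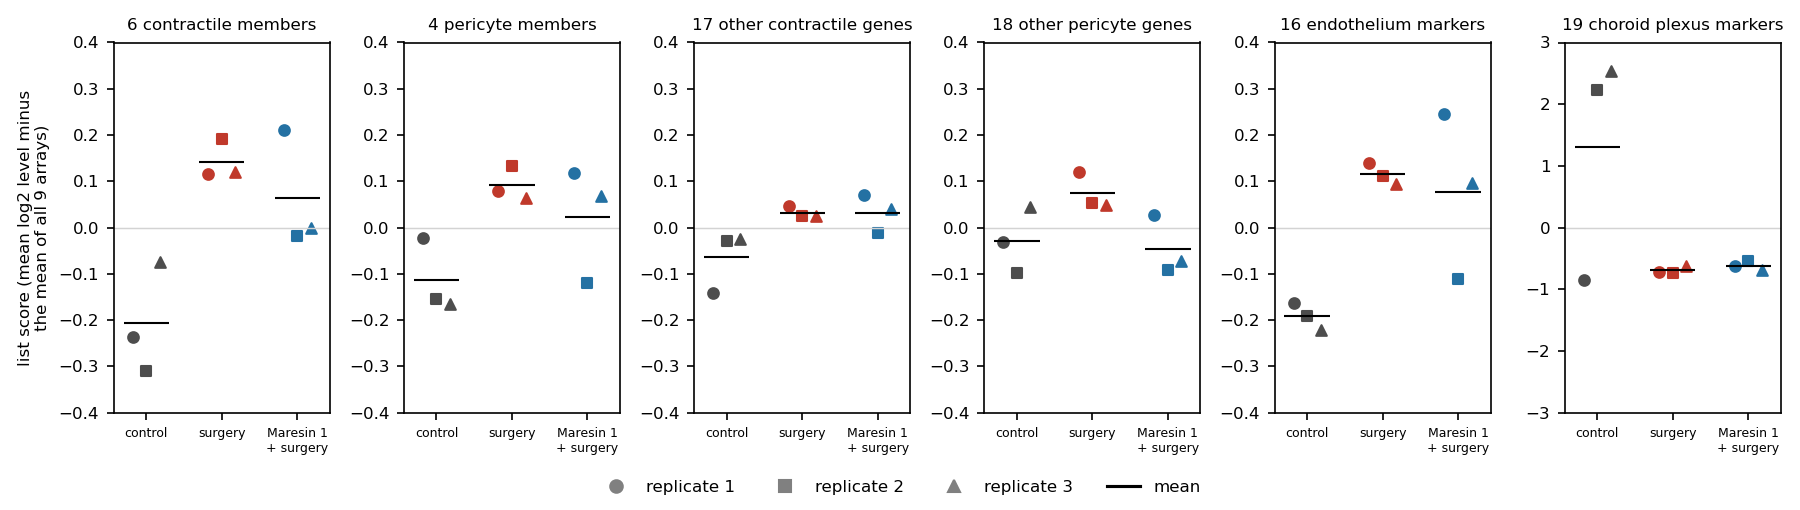
List score of each array, the mean log2 level of the list's genes minus their mean over all 9 arrays, for the members, for other contractile and pericyte genes, and for endothelium and choroid plexus markers, with the mean of each group as a line. The choroid plexus panel has a wider axis than the others. The 3 surgery arrays lie above the 3 controls in every panel but choroid plexus, narrowly for other pericyte genes. Control replicates 2 and 3 stand apart for choroid plexus.

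Markers of other cell types were read in the same way between surgery and control. All 19 choroid plexus markers were lower, by a median of -1.90, with 1 without overlap, beside the high signal of control replicates 2 and 3. Of 14 fibroblast markers 11 were higher, by a median of 0.07, with summed signals of 5408 to 8219 in control, 5797 to 6784 after surgery and 5082 to 6869 with Maresin 1. Of 12 skeletal and cardiac muscle markers 10 were higher, by a median of 0.09. Their summed signals were 1115 to 1232 in control, 1215 to 1277 after surgery and 1080 to 1182 with Maresin 1. The brightest of them was Pvalb, at a mean level of 8.72, and which cells its signal came from was not tested. Myh1, Myh2, Myh4 and Mylpf of fast muscle fibres stood below the guide level. Astrocyte markers had a median of 0.09 and microglia and border macrophage markers of 0.08. Hippocampal neuron markers had a median of -0.00, with 6 of 12 higher. The 3 measured red cell markers were all higher without overlap, as were 7.71% of all genes. Alas2 differed by 0.95 (SE 0.25), and Slc4a1 (0.16) and Epb42 (0.11) stood below the guide level. Their summed signal ran from 109 to 122 in control, from 160 to 292 after surgery and from 116 to 206 with Maresin 1. The part of these cell types in the members' values was not tested.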

How the data were processed

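Total RNA (6 µg) of each hippocampus was hybridised to an Affymetrix array, per the labels' protocols. The authors used Expression Console to make the deposited intensities, per the submitters' processing notes, which name neither version nor algorithm. The intensities are linear, and the array medians ran from 54.1 to 100.1, a 1.85-fold range, so the values were quantile normalized here before log2(signal + 16). No filter on dim genes was applied. The number of arrays limits the precision. Groups come from the titles, which call the arrays biological replicates.

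Of 35556 probe sets, 21218 name 1 gene, and 21185 of these matched the RefSeq gene table. Each gene was read from its one-gene probe set of highest mean. All 9 arrays entered 1 limma 3.58.1 model (R 4.3.3, trended prior, two-sided), adjusted over 18820 genes (Benjamini-Hochberg, 0.05) and tested on simulated data.

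The members and lists were chosen with earlier results of these data known. Named are all members, up to 4 genes of smallest p per list and comparison, all PDGF, channel and paralog genes, the 3 brightest markers of a list, and a few on which a result turns. The 20 alternatives changed the normalization, added constant, dim filter, probe set rule, prior, groups fitted, replicate block, choroid plexus covariate, or arrays used; an endothelium score subtraction was added after seeing the data.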

Additional observations from a re-analysis of the deposited data

How the results depend on the processing

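Over 20 alternatives the median difference of the 10 members kept its sign in all 3 comparisons. Several of these could not move a member's difference: the constant prior, only the groups compared, the probe set rule and the replicate block. The dim filter could only drop Cnn1. Leaving out an array of the group not compared acts through the normalization alone. Between surgery and control it was 0.17 without normalization between arrays and 0.18 with 64 added, and 0.22 to 0.31 when single arrays were left out. Against surgery these fits gave -0.14 to -0.04, and for Maresin 1 with surgery against control 0.12 to 0.21. Subtracting the endothelium score, a later choice that shifts all genes alike, put it at -0.042 between surgery and control and -0.092 between Maresin 1 with surgery and control, against medians of all genes of -0.29 and -0.27, so its sign on that scale has no meaning of its own. Of 597 single values of members, a count that includes those that could not move, 24 changed sign, in no case for a value past the threshold. Scaling to one median put the median of all genes at 0.10 between surgery and control.

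Counts over all genes depended on the arrays used. Between surgery and control 0 genes passed, but 37 with arrays scaled to one median (12 higher, 25 lower) and 42 without normalization (1 higher, 41 lower). Leaving out single arrays gave 0 to 167, the latter without control replicate 1 (18 higher, 149 lower). Between Maresin 1 with surgery and control 16 genes passed (13 higher, 3 lower), but 38 with one median (5 higher, 33 lower) and 43 without normalization (2 higher, 41 lower). With a constant prior, only the groups compared, or the replicate block, 0 passed, and 4 did with the choroid plexus covariate or without control replicates 2 and 3. Leaving out single arrays gave 0 to 244, the latter without control replicate 1. The causes were not tested. Between Maresin 1 with surgery and surgery 0 genes passed in every fit (limma), against 1065 at an unadjusted p under 0.05.

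The shared replicate numbers did not pair the arrays: deviations of same-numbered arrays correlated at -0.24 to 0.06 across genes. The replicate block is balanced over the groups, so it cannot move a member's difference. Under it the limma adjusted p of Acta2 between surgery and control was 0.490. With 3 arrays a group and levels near the guide level, differences in Cnn1, Des and Tagln are poorly resolved.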
